A study of Mus musculus with 24 samples.

Results

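The genes described here are 9 that carry out or restrain apoptosis and necroptosis: Casp8, Ripk1, Ripk3, Mlkl, Bax, Bak1, Bcl2, Bcl2l11 and Birc3. They were chosen by name, for their roles in these pathways, out of the 41388 genes counted, and each had 1 identifier in the count tables. Earlier results of these data were known when they were chosen. All 9 passed the filter on low counts at each of the 3 time points. In mouse hearts with experimental autoimmune myocarditis (EAM) sampled at D15, 8 of the 9 were called higher than in control hearts and 1, Bcl2, was not, where 18.1% of all 15693 genes tested were called higher and 12.9% lower.

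Male wild type mice of the BALB/c substrain BALB/cAnNCrl (labelled Balb/c) were culled 10, 15 or 21 days after the first immunization (D10, D15 and D21), and RNA was sequenced from part of the heart of 4 EAM and 4 control mice at each time point. The mice were immunized at 8 to 10 weeks of age. EAM mice received 200 µl of an emulsion of supplemented complete Freund's adjuvant (SCFA) holding 100 µg of a peptide of the alpha myosin heavy chain on day 0 and again on day 7. Control mice received the same volume of adjuvant emulsified with PBS on those days, and all mice of both groups also received pertussis toxin (PTX) on day 0, so the controls are adjuvant and toxin treated, not untreated. Not every immunized animal may develop the disease, and the sampling of hearts for RNA favoured inflamed ones. A comparison of EAM with control is therefore a comparison of hearts with inflammation, where it could be found, with adjuvant controls.

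Apoptosis is a form of cell death in which caspases dismantle the cell from within. It can start at death receptors on the cell surface, through CASP8, or at mitochondria, where BAX and BAK1 open the outer membrane unless BCL2 and its relatives hold them back. Necroptosis is a lytic death that follows when CASP8 does not cut RIPK1 and RIPK3: RIPK3 then phosphorylates MLKL, which breaks the plasma membrane and releases the cell's contents. Both kinds of death have been described in injured heart muscle, and most of these genes are also expressed in immune cells.

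The stretches before the start sites of 4 of the genes are shown because they belong to the member with the largest fold change at D15 (Ripk3), the gene that acts directly after it (Mlkl), the member with the second largest fold change (Birc3) and the member that was not called (Bcl2). They are RefSeq sequences of GRCm38.p6, read 5′ to 3′ on the minus strand, on which all 4 genes lie: Ripk3 at chr14:55788866-55789107, Mlkl at chr8:111338206-111338455, Birc3 at chr9:7873187-7873420 and Bcl2 at chr1:106714291-106714540. Each ends at the start site or, for Ripk3 and Birc3, 8 and 16 bases before it, where GENCODE M21 begins the first exon, and holds no annotated exon. Capitals mark matches to a pattern of the NF-kappaB site, GGG and CC with any 5 bases between them, on either strand.
Ripk3: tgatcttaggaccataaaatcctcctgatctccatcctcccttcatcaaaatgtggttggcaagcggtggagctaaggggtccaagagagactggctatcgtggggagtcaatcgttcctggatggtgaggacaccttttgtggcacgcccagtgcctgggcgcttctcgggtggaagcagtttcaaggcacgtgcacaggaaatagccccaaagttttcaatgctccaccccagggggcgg
Mlkl: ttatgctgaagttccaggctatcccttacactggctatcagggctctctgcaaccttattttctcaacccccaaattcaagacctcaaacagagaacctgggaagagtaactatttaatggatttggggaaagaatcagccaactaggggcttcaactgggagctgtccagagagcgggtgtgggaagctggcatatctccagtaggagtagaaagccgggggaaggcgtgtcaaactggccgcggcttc
Birc3: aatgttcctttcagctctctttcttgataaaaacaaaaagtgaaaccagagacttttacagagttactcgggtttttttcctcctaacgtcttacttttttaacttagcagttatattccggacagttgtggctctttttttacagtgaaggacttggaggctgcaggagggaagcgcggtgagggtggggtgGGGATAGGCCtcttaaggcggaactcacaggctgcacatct
Bcl2: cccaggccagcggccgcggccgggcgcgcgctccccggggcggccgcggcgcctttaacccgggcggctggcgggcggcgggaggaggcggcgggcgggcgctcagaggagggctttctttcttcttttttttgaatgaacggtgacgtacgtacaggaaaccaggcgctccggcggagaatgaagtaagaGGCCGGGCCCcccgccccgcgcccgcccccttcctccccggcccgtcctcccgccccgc

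Promoter windows of 250 bases before each start were found for all 9 genes, 11 windows in all, and searched on both strands. All 250 bases of the Bak1 window and 171 bases of the second of 2 Ripk1 windows lie in annotated exons, and the matches given below for these genes are in those windows. The NF-kappaB pattern stood in a window of 6 of the 9 (Bak1, Bax, Bcl2, Bcl2l11, Birc3 and Ripk1), against 48.7% of the 27025 genes in the RefSeq table. As the sequences show, it was present before Bcl2 and Birc3 and was not among the letters before Ripk3 and Mlkl. The STAT site pattern TTCNNNGAA (GAS) stood in a window of Ripk1 alone, at 2 places, against 8.13% of all genes, and the interferon response core (ISRE), GAAA and GAAA with any 2 bases between them, in that of none, against 3.46%. The only matches to overlap were a pair of NF-kappaB matches before Bcl2l11. These are matches of letters in short windows, not measurements of binding.

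Total counts lay between 15814863 and 24980864 per library, with a median of 19469782, and the smallest count of a member in any library was 65 reads, for Ripk3 in a D10 control heart. The D10 EAM replicate 1 stood apart from the other D10 EAM hearts, with a summed level of 4 leucocyte markers (Ptprc, Itgb2, Coro1a and Laptm5) of 891 CPM (counts scaled by library size) against 165 to 328, so D10 results are given with and without it. The 4 D21 EAM libraries carry a library code different from that of the other 20. At D21 this code and EAM cannot be told apart. The 7 cardiomyocyte markers that check the heart label summed to at least 7325 CPM in every library. Levels are given as CPM after TMM normalization over the 24 libraries. A gene was called at a Benjamini-Hochberg FDR under 0.01 in edgeR's quasi-likelihood test together with at least a 2-fold change, and every adjusted p is from that test over all genes kept in the comparison.

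At D15, transcripts of all 4 members that act at the meeting point of apoptosis and necroptosis rose in EAM hearts. Ripk3, the kinase that sets off necroptosis, rose most, 7.09-fold, followed by its target Mlkl, 4.23-fold, by Ripk1, the kinase and scaffold recruited to TNF receptors, 3.77-fold, and by Casp8, the initiator caspase that restrains both kinases, 2.65-fold. Levels of Ripk3 were 5.48, 5.56, 5.67 and 4.78 CPM in the D15 control hearts and 38.8, 44.3, 30.6 and 37.3 CPM in the EAM hearts. Every EAM heart was thus more than 5 times the highest control heart (log2 fold change 2.83, SE 0.13, adjusted p = 1.19e-07). Those of Mlkl were 6.73, 6.03, 5.77 and 7.02 CPM in controls and 26.4, 27.4, 26.9 and 26.5 CPM in EAM. The 4 EAM hearts differed little from each other in Mlkl, with an SD of 0.482 CPM around a mean of 26.8 CPM (log2 fold change 2.08, SE 0.08, adjusted p = 5.66e-08).

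Ripk1 stood at 11.1, 11.2, 13.2 and 10.7 CPM in the D15 controls and at 43.8, 43.7, 45.0 and 40.5 CPM in EAM (log2 fold change 1.91, SE 0.08, adjusted p = 8.76e-08). Casp8 stood at 21.9, 18.2, 21.7 and 20.3 CPM in controls and at 58.0, 57.2, 48.8 and 51.3 CPM in EAM (log2 fold change 1.41, SE 0.09, adjusted p = 8.23e-07). In neither gene did the groups overlap. The kinases Ripk1 and Ripk3 and the pore former Mlkl thus all differed more than Casp8 did, in fold change, although the difference between genes was not tested. Ripk1 shares exonic bases with Serpinb6a on the opposite strand (241 bases) and with the pseudogene Gm17084 (511 bases), and no source used here gives the strand setting of the counting, so reads there cannot be assigned with certainty. A level in RNA from whole tissue does not tell more or fewer cells of a type from more or less RNA per cell. This holds for every result here.

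Among the members that act at mitochondria, Bak1, Bax and Bcl2l11 rose at D15 and Bcl2 was not called. Bak1, which with Bax forms the pore in the outer membrane, went from 27.3, 29.3, 26.0 and 28.1 CPM in controls to 129, 133, 113 and 121 CPM in EAM hearts, a 4.53-fold rise (log2 fold change 2.18, SE 0.07, adjusted p = 2.45e-08). Bax rose less, 2.29-fold, from 22.9, 22.4, 19.5 and 21.8 CPM to 50.6, 54.9, 41.2 and 49.1 CPM (log2 fold change 1.19, SE 0.10, adjusted p = 5.59e-06). Neither gene's groups overlapped. Bcl2l11 encodes BIM, a BH3-only protein that neutralizes BCL2 and activates BAX, and was at 21.3, 27.5, 28.6 and 25.4 CPM in controls and at 58.5, 55.5, 45.9 and 49.98 CPM in EAM (log2 fold change 1.04, SE 0.11, adjusted p = 2.68e-05). Its fold change of 2.06 lies just past the 2-fold limit, and its call was lost with all 12 control hearts as the comparator (log2 fold change 0.96) and without D15 control replicate 1 (0.97). Bak1 shares exonic bases with Ggnbp1 on the opposite strand (437 bases) and Bcl2 shares some with an antisense transcript (558 bases), with the same uncertainty as for Ripk1.

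Bcl2, the founding survival protein of the family, was at 27.1, 18.2, 21.1 and 21.9 CPM in D15 controls and at 24.7, 19.6, 21.8 and 27.8 CPM in EAM hearts. The groups overlapped throughout, and the log2 fold change was 0.10 (SE 0.14, adjusted p = 0.535). Birc3 encodes cIAP2, a ubiquitin ligase that modifies RIPK1 at the TNF receptor and is a known NF-kappaB target. It rose 4.90-fold at D15, from 19.3, 16.9, 21.0 and 21.4 CPM to 103, 94.7, 89.2 and 94.5 CPM (log2 fold change 2.29, SE 0.09, adjusted p = 4.71e-08). Birc3 was therefore the second largest fold change among the members after Ripk3, and a gene counted with the inhibitors of death.

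**Figure D1:**
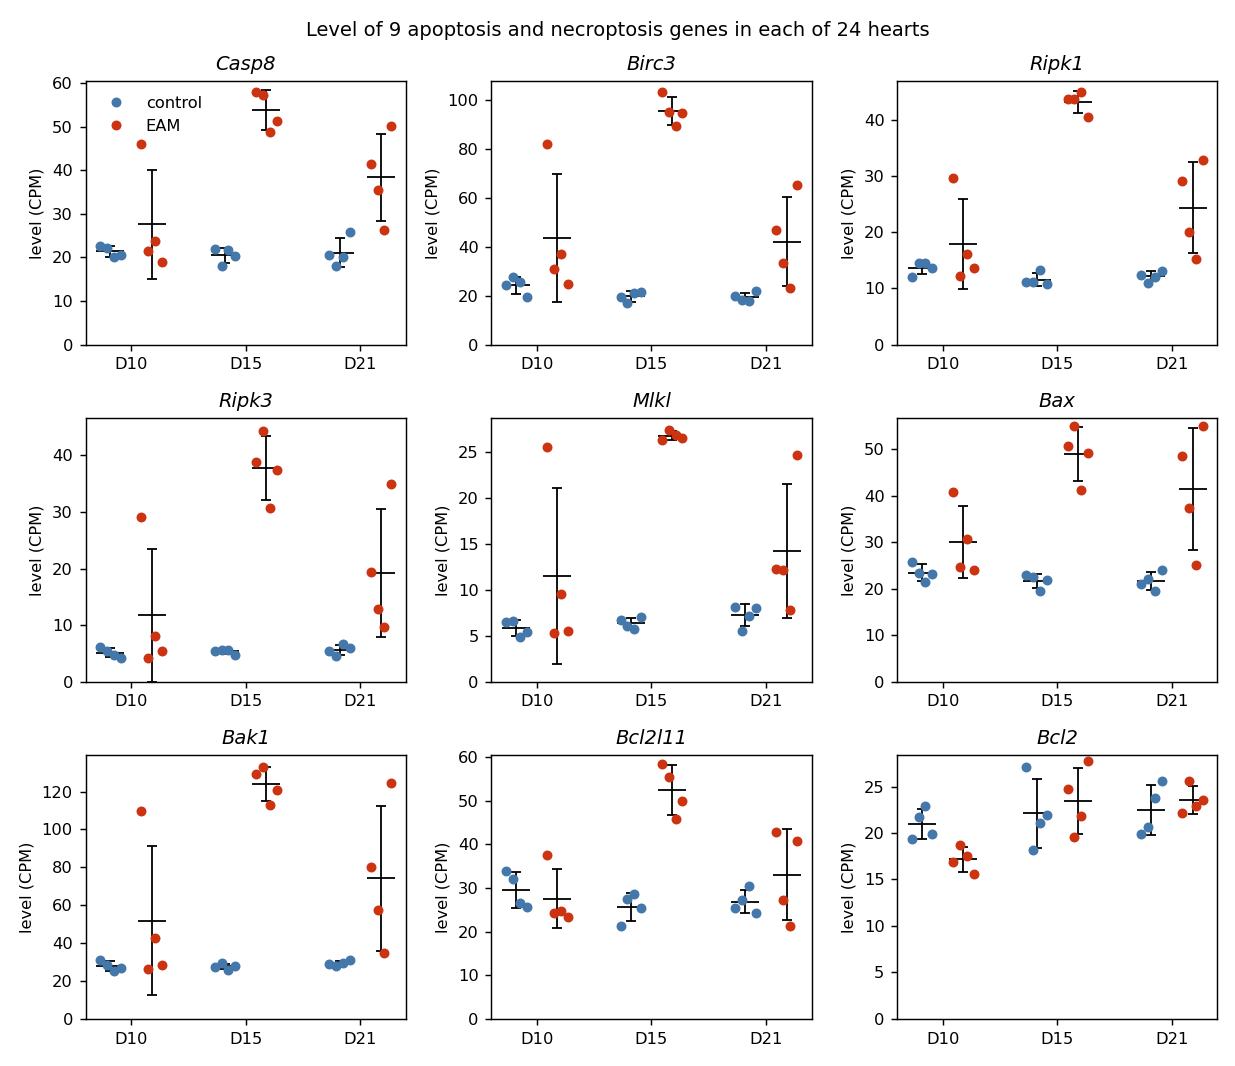
Level of each of the 9 genes (CPM, linear axis from 0) in every heart, with control hearts in blue and EAM hearts in red at D10, D15 and D21; each point is 1 heart, and the black lines give the mean and SD of 4 hearts. At D15 the EAM hearts lie above all controls in every panel except Bcl2, and at D10 a single EAM heart, replicate 1, lies far above the others in most panels.

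In all, 8 of 9 members were called higher at D15 and 0 lower, where 18.1% of the 15693 genes tested were called higher and 12.9% lower. The members were chosen with earlier results of these data known, so their count is not independent of the data. The same 8 had no overlap between groups with EAM above control, as did 35.6% of all genes. The median log2 fold change of the 9 was 1.91, against 0.02 over all genes tested. No alternative tried took away any other call of a member at D15 than the 2 losses of Bcl2l11 given above.

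Markers of immune cells moved with these genes, and their part in the results was not tested. At D15 all 4 leucocyte markers were called higher, with summed levels of 89.0 to 112 CPM in controls and 1176 to 1577 CPM in EAM. All 8 monocyte and macrophage markers (234 to 284 CPM in controls, 1504 to 2101 CPM in EAM), all 6 of neutrophils (16.7 to 80.2 against 557 to 954 CPM), all 6 of T cells (1.89 to 3.22 against 37.4 to 58.2 CPM) and all 3 of NK cells (0.520 to 0.992 against 7.95 to 14.2 CPM) were called higher too. None of the 3 B cell markers tested was called. Fibroblast markers summed to 1093 to 1312 CPM in controls and 2993 to 6327 CPM in EAM, with 1 of 4 called higher (Col1a1, 21.8-fold), and endothelial markers to 851 to 1158 and 605 to 659 CPM, with 1 of 4 called lower (Kdr). No defining marker of these types was at 0 in all 4 hearts of either D15 group. Of 7 cardiomyocyte markers 4 were called lower, with sums of 26690 to 31350 CPM in controls and 7325 to 18800 CPM in EAM, and the share of counts on mitochondrial genes was 6.10% to 7.14% in controls and 3.19% to 4.31% in EAM.

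Levels of the members were lower against the leucocyte transcript Ptprc in EAM hearts than in controls at D15, since Ptprc itself went from between 16.4 and 20.8 CPM to between 247 and 312 CPM. The log2 ratio of Ripk3 to Ptprc was between -2.12 and -1.56 in D15 controls and between -3.03 and -2.55 in EAM. For Mlkl it was between -1.63 and -1.32 in controls and between -3.57 and -3.20 in EAM. At D10, where Ptprc spanned 23.8 to 195 CPM over the 8 hearts, the log2 ratio of Ripk3 to Ptprc stayed between -2.92 and -2.48. For Bcl2 at D10 it ran from -3.54 in EAM replicate 1 to -0.26 in a control. The width of the Ptprc and Bcl2 ranges rested largely on EAM replicate 1. Without it Ptprc spanned 23.8 to 55.7 CPM and the Bcl2 ratio -1.67 to -0.26, and the Ripk3 ratio kept its range. These ratios are a description over 8 libraries.

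**Figure D2:**
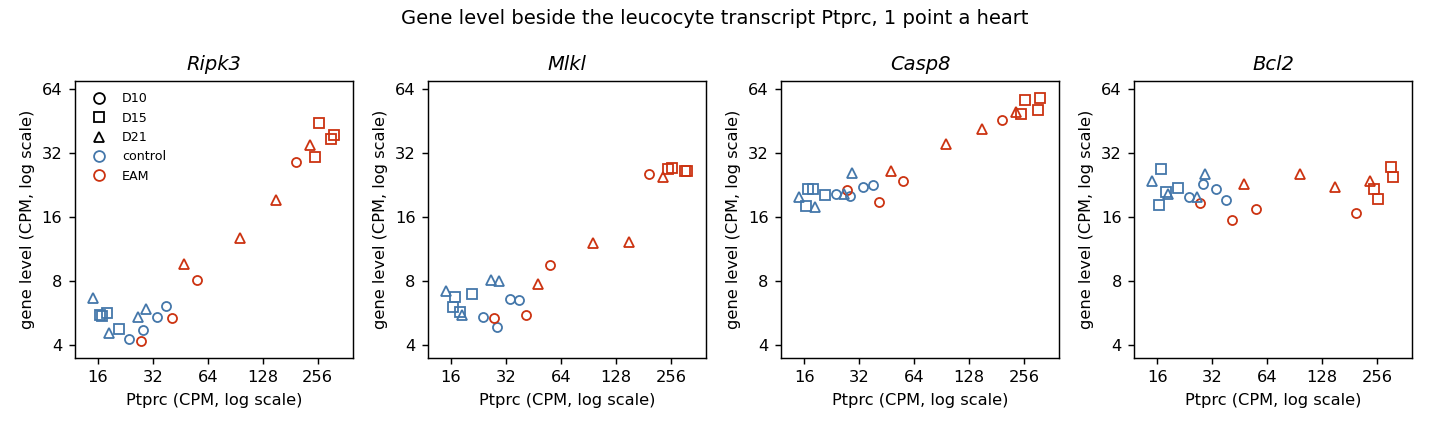
Levels of Ripk3, Mlkl, Casp8 and Bcl2 (CPM, log axis) against Ptprc (CPM, log axis) in each of 24 hearts, with circles for D10, squares for D15 and triangles for D21, controls in blue and EAM in red. Ripk3, Mlkl and Casp8 are high in the hearts with high Ptprc, among them D10 EAM replicate 1, whereas Bcl2 lies between 15.6 and 27.8 CPM at every level of Ptprc.

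Bax and Bcl2 act against each other, and their ratio was therefore followed in each heart. The log2 ratio of Bax to Bcl2 in CPM was between -0.25 and 0.30 in D15 controls and between 0.82 and 1.49 in EAM hearts. At D10 it was between -0.09 and 0.41 in controls and at 1.28, 0.40, 0.81 and 0.62 in EAM. At D21 it was between -0.28 and 0.10 in controls and at 1.13, 0.55, 0.13 and 1.22 in EAM. The groups did not overlap at D15 or D21, while at D10 the lowest EAM heart was just under the highest control heart.

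Other genes of these pathways, 48 in all, were grouped by role, and 47 of them could be tested at D15. Of these, 16 rose and 2 fell, with a median log2 fold change of 0.55, where 18.1% of all genes rose and 12.9% fell. With no limit on the fold, 33 of the 47 were higher and 7 lower at an FDR under 0.01, as were 33.3% and 31.2% of all genes. Death receptors and ligands gave 4 of 5: the TNF receptor Tnfrsf1a (log2 fold change 1.60, adjusted p = 4.03e-08), the Fas receptor (1.49, adjusted p = 1.06e-05), Tnfrsf10b (1.02), and the Fas ligand Fasl. Fasl was counted with 43, 41, 33 and 43 reads in D15 EAM libraries and with 2, 0, 0 and 0 reads in controls, a ratio per total counts of 64.6 (95% exact counting interval 17.6 to 538). The call of Tnfrsf10b, a TRAIL receptor, was lost under 5 of 21 alternatives.

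Among 17 genes of the TNF receptor complex and its regulators, 2 rose: Tnfaip3, the ubiquitin-editing enzyme A20, from 14.2 ± 2.99 to 78.8 ± 6.26 CPM (SD, n = 4, log2 fold change 2.48), and the adaptor Tradd (1.31). The other 15 did not reach a 2-fold change. Among them Cflar, which encodes the CASP8 inhibitor cFLIP, was 1.82-fold higher (adjusted p = 2.45e-06) and Tnip1 1.82-fold (adjusted p = 5.12e-06). Otulin was 1.46-fold higher (adjusted p = 4.02e-05) and Traf2 1.36-fold (adjusted p = 0.000185). None of these had groups that overlapped. Others were lower, also with no overlap: Fadd (log2 fold change -0.26, adjusted p = 0.0106), Tab3 (-0.32, adjusted p = 0.00953) and Map3k7 (-0.30, adjusted p = 0.00119). Xiap stood at 1.02-fold (adjusted p = 0.752). Of the sensors that feed RIPK3, Zbp1, which binds nucleic acid in the Z conformation, went from 3.09 ± 0.238 to 101 ± 13.4 CPM (log2 fold change 5.04, adjusted p = 1.06e-08), while Ticam1 was 1.55-fold higher, under the 2-fold limit (adjusted p = 1.24e-05). In the apoptosome and caspase group, 1 of 7 genes rose, Apaf1 (2.07), whose product assembles the apoptosome, and 1 fell. Cycs, the cytochrome c that BAX and BAK1 release, fell from 754 ± 48.2 to 295 ± 68.7 CPM (log2 fold change -1.34, adjusted p = 5.10e-05).

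The BH3-only group also moved both ways at D15. Pmaip1, which encodes NOXA, rose from 0.769 ± 0.294 to 14.5 ± 0.473 CPM (log2 fold change 4.24), as did Bid (2.96) and Bmf (1.30), whereas Hrk fell (-2.68), from 21, 19, 19 and 18 reads per control library to 6, 2, 5 and 3 reads. Of 3 tested survival genes other than Bcl2, Bcl2l1, which encodes BCL-XL, rose to 94.5 ± 2.97 from 47.3 ± 9.03 CPM (log2 fold change 1.01). Its call was lost under 3 of 21 alternatives. The others did not reach a 2-fold change: Mcl1 was higher (0.90, adjusted p = 1.72e-05) and Bcl2l2 lower (-0.57, adjusted p = 0.000119), each with no overlap between groups. Pyroptosis, a lytic death run by gasdermins, gave 4 of 5 genes higher: Casp1 (2.91), Casp4 (2.91), Gsdmd (2.32) and Ninj1 (1.28), which ruptures the membrane of dying cells. Gsdme was not called. Leaving out single libraries gave 14 to 16 higher and 1 to 3 lower among the 47.

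**Figure D3:**
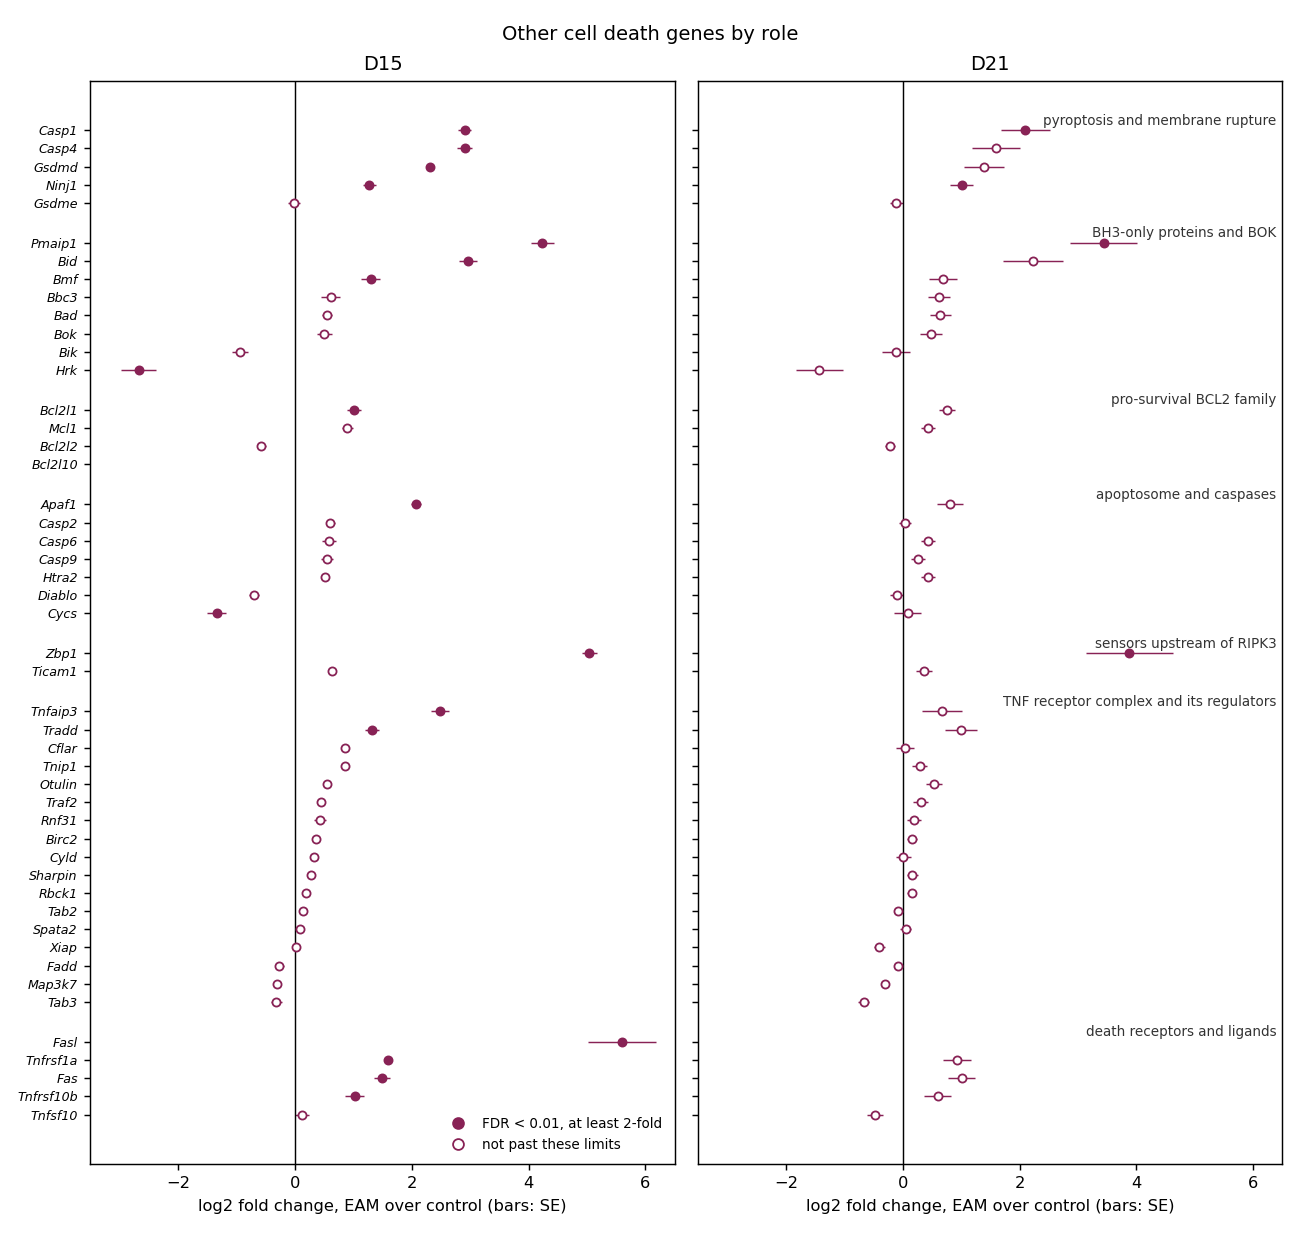
Log2 fold change of EAM over control at D15 (left) and D21 (right) for the other cell death genes, grouped by role, with bars for the standard error and filled points for genes called; genes without a point could not be tested. Filled points are spread over every role at D15, with 16 to the right and 2 to the left of 0, and 4 genes are filled at D21.

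At D10, 0 of 9 members were called, as were 0% of the 15029 genes tested. At an unadjusted p under 0.05 there were 2 members, Bcl2 and Birc3, against 15.2% of all genes. Values of Ripk3 were 6.11, 5.44, 4.75 and 4.28 CPM in D10 controls and 29.1, 4.18, 8.15 and 5.40 CPM in EAM. EAM replicate 1 was thus near the D15 EAM level, and the other 3 hearts were near or among the controls (log2 fold change 1.18, SE 0.58, adjusted p = 0.341). Without replicate 1 the log2 fold change of Ripk3 was 0.19 (adjusted p = 0.749). The same heart was the highest of its group for Mlkl (25.5 CPM, against 5.36 to 9.58 in the other 3), Bak1 (109.9 against 26.4 to 42.6) and Casp8 (46.1 against 18.9 to 23.8). The log2 fold changes with and without it were 0.96 and 0.21 for Mlkl, 0.88 and 0.22 for Bak1, and 0.35 and -0.01 for Casp8.

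Birc3 at D10 was at 24.4, 27.6, 25.7 and 19.3 CPM in controls and at 81.8, 30.7, 37.1 and 24.7 CPM in EAM (log2 fold change 0.83, SE 0.34, adjusted p = 0.328), and without replicate 1 the log2 fold change was 0.34 (adjusted p = 0.454). Against all 12 control hearts it was called (log2 fold change 1.07, adjusted p = 0.00287), as were 4.09% of all genes. No other member was called at D10 in any alternative. Bcl2 was the only member with no overlap at D10, at 19.4, 21.7, 22.9 and 19.9 CPM in controls and 16.8, 18.7, 17.6 and 15.6 CPM in EAM, with every EAM heart lower. Its log2 fold change of -0.30 (SE 0.09) had an unadjusted p of 0.00941 and an adjusted p of 0.328, and 3.89% of all genes had groups that did not overlap in this direction. The Bcl2 value without EAM replicate 1 was -0.28 (adjusted p = 0.413). Without EAM replicate 1 the log2 fold changes of the 9 members ran from -0.30 to 0.34 with a median of 0.17, against -0.30 to 1.18 and 0.37 with it. Leucocyte markers summed to 120 to 209 CPM in D10 controls and 165 to 891 CPM in EAM, and their part in these values was not tested.

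**Figure D4:**
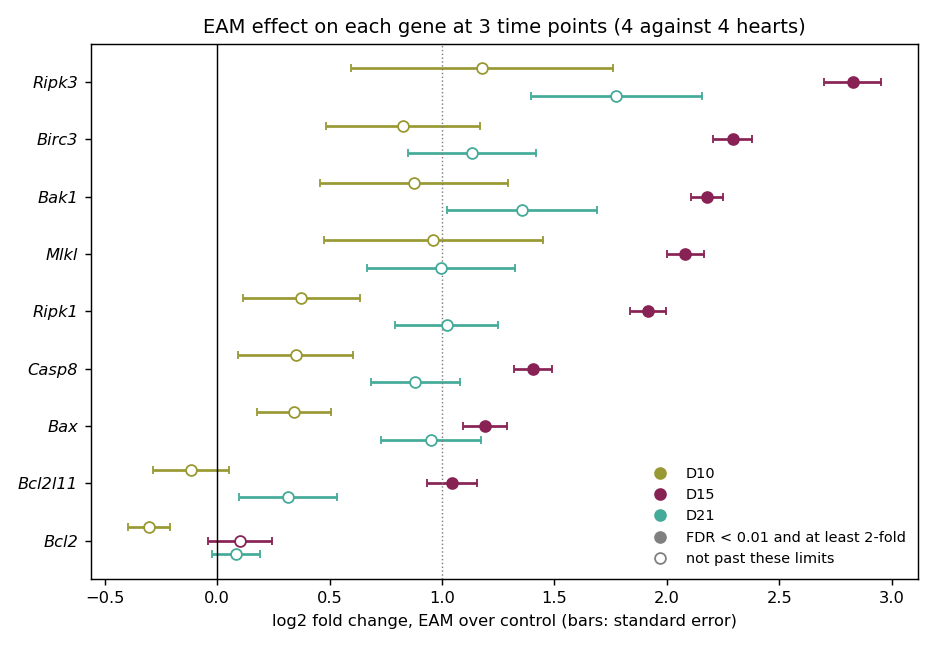
Log2 fold change of EAM over control for each gene at D10, D15 and D21 (4 against 4 hearts), with bars for the standard error, filled points for genes called and a dotted line at a 2-fold rise. The 8 filled points are all at D15, and the bars are wider at D10 and D21 than at D15 for every gene that rose.

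The question of whether the EAM effect itself differed between time points was put to a fit of all 24 hearts. From D10 to D15 the effect grew for 4 members: Ripk1 by 1.49 on the log2 scale (SE 0.30, adjusted p = 0.00195), Birc3 by 1.42 (SE 0.40, adjusted p = 0.00794), Bcl2l11 by 1.11 (SE 0.25, adjusted p = 0.00262) and Casp8 by 1.01 (SE 0.29, adjusted p = 0.00901). Of all genes, 5.30% of 16318 were called in this direction and 7.56% in the other. For Ripk3 the value was 1.60 with an SE of 0.62 (adjusted p = 0.0402), for Bak1 1.25 (adjusted p = 0.0374) and for Mlkl 1.07 (adjusted p = 0.0932). Bax was at 0.80 (adjusted p = 0.0135) and Bcl2 at 0.35 (adjusted p = 0.0825).

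The count of 4 turned on single hearts. Without D10 EAM replicate 1 it was 7, with Ripk3 (2.58), Bak1 (1.91) and Mlkl (1.82) added, and 12% of all 16275 genes then tested were called in this direction. Without any of 13 other libraries, in turn, or with no filter on low counts, it was 2, with Casp8 and Birc3 no longer called. The share of all genes called in this direction was then 2.91% to 4.06% over those 13 removals and 2.66% with no filter, against 5.3% with all hearts and the filter. Ripk1 and Bcl2l11 stayed called with each library left out. Among the other 47 pathway genes, 4 effects grew (Tnfaip3, Apaf1, Pmaip1 and Bmf) and 3 moved lower (Cycs, Bik and Hrk). These counts were 13 and 3 without D10 EAM replicate 1, and 2 to 4 and 2 to 3 without any other library. The count of effects that grew was 8 with the replicate number as a block and with no limit on the fold, 7 at an adjusted p limit of 0.05, and 6 with DESeq2 and with limma-voom. The calls of Pmaip1, Tnfaip3 and Bik were lost under 18, 11 and 8 of 27 alternatives, and those of Apaf1, Bmf, Cycs and Hrk under 0.

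At D21, 0 of 9 members were called, where 4.30% of 15266 genes were called higher and 1.30% lower, although 7 members had an adjusted p under 0.05, as did 32.9% of all genes. Of those 7, 4 were also at least 2-fold higher, and 9.37% of all genes met that looser pair of limits. Ripk3 stood at 5.47, 4.59, 6.70 and 5.97 CPM in D21 controls and at 19.4, 12.8, 9.70 and 34.9 CPM in EAM, 3.42-fold (log2 fold change 1.77, SE 0.38, adjusted p = 0.0122). All EAM hearts exceeded all controls for this gene, over a wide range. Bak1 was at 29.1, 27.7, 29.3 and 31.1 CPM in controls and 80.2, 57.2, 34.6 and 124 CPM in EAM (log2 fold change 1.36, SE 0.33, adjusted p = 0.0184).

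Birc3 was at 19.7, 18.0, 18.0 and 21.8 CPM in D21 controls and 46.8, 33.3, 23.0 and 65.0 CPM in EAM (log2 fold change 1.13, adjusted p = 0.0196), and Ripk1 at 12.4, 11, 12 and 13.2 CPM and 29.2, 20.1, 15.2 and 32.8 CPM (1.02, adjusted p = 0.0139). In each of these 4 genes EAM replicate 3 was the lowest EAM heart and replicate 4 the highest. Casp8 (0.88, adjusted p = 0.0141), Bax (0.95, adjusted p = 0.0157) and Mlkl (0.99, adjusted p = 0.0469) were just under 2-fold. Bcl2l11 was at 42.9, 27.2, 21.4 and 40.7 CPM in EAM against 24.3 to 30.4 CPM in controls (0.31, adjusted p = 0.275), and Bcl2 at 22.2 to 25.6 CPM against 19.9 to 25.6 CPM (0.08, adjusted p = 0.552). Groups did not overlap for 6 members, with EAM higher, as for 16.5% of all genes.

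Leaving out D21 EAM replicate 3 brought the count of called members from 0 to 7, all but Bcl2 and Bcl2l11, and over all genes the share called higher without that heart was 9.8%. Leaving out any other library left the count of members at 0. Over all genes 0 to 2 were called higher without a control heart and 5, 19 and 303 without EAM replicates 1, 2 and 4, against 657 with all hearts, so a count of 0 without a control or without EAM replicate 1 or 2 says nothing about the members. The likelihood ratio test and DESeq2 called Ripk1, Ripk3, Bak1 and Birc3, and 8.88% and 8.93% of all genes higher. Leucocyte markers summed to 82.2 to 147 CPM in D21 controls and to 953, 523, 262 and 1226 CPM in the EAM hearts, in the same order of hearts as Ripk3 and Bak1, and all 4 were called higher. All 6 T cell markers, 5 of 8 monocyte and macrophage markers and 1 of 6 neutrophil markers were called higher, as were both NK cell markers tested and 1 of 4 fibroblast markers (Col1a1, 9.18-fold), and 0 of 7 cardiomyocyte markers were called lower. Adipocyte markers summed to 14.7 to 38.6 CPM in controls and 0.169 to 5.89 CPM in EAM, with Adipoq and Plin1 called lower, and endothelial markers to 1058 to 1266 and 639 to 1007 CPM with none called. Their part in the D21 values was not tested.

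Of the other pathway genes 4 of 46 were called higher at D21 and 0 lower, where 4.3% of all genes were called higher and 1.3% lower: Zbp1 (log2 fold change 3.88, adjusted p = 0.00895), Pmaip1 (3.44, adjusted p = 0.00678), Casp1 (2.10, adjusted p = 0.00995) and Ninj1 (1.01, adjusted p = 0.00899). The call of each was lost under at least 7 of 21 alternatives, among them every removal of 1 control heart, and those of Casp1 and Ninj1 also with the replicate number as a block. With a control heart left out 0 to 2 of all genes were called higher, so those losses are not particular to these 4 genes. The count of 4 also moved up, to 10 higher and 1 lower without D21 EAM replicate 3, to 8 higher with the likelihood ratio test and with DESeq2, and to 7 with all 24 samples in 1 fit. Cycs was at 617 ± 138 CPM in D21 EAM and 588 ± 162 CPM in controls (log2 fold change 0.08, adjusted p = 0.798).

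From D15 to D21 the EAM effect was called different for 0 of 9 members, against 2.84% of all genes called higher and 0.968% called lower. The fitted differences were Birc3 -1.15 (adjusted p = 0.0356), Ripk1 -0.88 (adjusted p = 0.0343) and Bcl2l11 -0.72 (adjusted p = 0.0374), and 4 members had an unadjusted p under 0.05, as did 41% of all genes. Those of Mlkl and Ripk3 were -1.08 and -1.04 with standard errors of 0.51 and 0.61. Bax moved by -0.23 (SE 0.25) and Bcl2 by 0.00 (SE 0.16). Without D21 EAM replicate 4, Ripk1 (-1.05) and Birc3 (-1.43) were called, as were 2.81% of all genes in this direction. This comparison and that of D10 with D15 share the D15 hearts. The D21 EAM hearts alone carry the other library code, so the code and a change of the EAM effect to D21 cannot be told apart. Among the other genes Tnfaip3 (-1.80) and Cycs (1.44) were called, the first of which lost its call under 11 of 27 alternatives, each the removal of 1 library, and the second under 0.

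In the 12 control hearts 0 members were called in each of 3 comparisons between days, with log2 differences from -0.33 to 0.29. These comparisons used the fit of all hearts, whose spread takes in the widely varying D10 and D21 EAM hearts. For Ripk3 the SE of D15 against D10 was 0.46. A lack of calls in this fit therefore does not show that control levels were alike. Of all genes, 0.00613% were called higher and 0.0735% lower at D15 than at D10, 0% in either direction between D15 and D21, and 0.153% higher and 0.116% lower at D21 than at D10. No member had an unadjusted p under 0.05 in these comparisons, against 6.8%, 2.54% and 12.4% of all genes. Per kilobase of exon, the control level was highest for Bax (median 14.1 CPM per kilobase, range 12.3 to 16.4) and Bak1 (11.8, 10.6 to 12.9), whose ranges overlapped. Casp8 came next (7.12, 6.21 to 8.90), overlapping neither neighbour. Birc3 (4.06), Bcl2l11 (3.35), Mlkl (2.86), Ripk3 (2.39) and Bcl2 (2.34) followed, each overlapping the next, and Ripk1 was lowest (1.47, 1.29 to 1.74) and overlapped none.

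In D15 EAM hearts this order of levels per kilobase changed. Bak1 was first at a median of 52.0 CPM per kilobase and Bax second at 31.6. Birc3 (18.9), Casp8 (18.8) and Ripk3 (16.6) came next with ranges that overlapped, so that Ripk3 had passed both Mlkl (11.6) and Bcl2l11 (6.57). Ripk1 stood at 5.24 and Bcl2 was lowest at 2.54 CPM per kilobase.

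The members were also compared with each other, and with all genes of at least 5 CPM on average, by the root mean square difference of log2(CPM + 1), centred per gene, over the 24 hearts. The closest members were Casp8 and Bax, at 0.17, and Mlkl and Bak1, at 0.18, and the farthest apart were Ripk3 and Bcl2, at 1.07. Mlkl was nearest to Dtx3l (0.16), Bak1 and Parp9. For Bak1 the nearest gene was Gsdmd (0.13), the pore former of pyroptosis, followed by Sp110 and Sh3bp1. Ripk3 was nearest to Tes (0.20), Slc9a3r1 and Tifa, and Birc3 to G6pdx (0.15), Edem1 and Myd88, the adaptor of Toll-like receptors. Nearest to Ripk1 were Tle3 (0.13), Rp2 and Cap1. Casp8 lay closest to Arl6ip1 (0.10), Rab5c and Rps6ka4, Bax to Erp29 (0.08), Arpc2 and Lgals1, and Bcl2l11 to Gak (0.15), Tent2 and Acvr1b. A small difference says that the genes moved by similar amounts in the same hearts, which share the groups of the study, and no more.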

How the data were processed

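RNA of 24 hearts, 4 per group, was measured, and the sample labels gave the groups. The authors aligned read pairs to GRCm38 with HISAT2 2.0.4, removed duplicates with Picard and deposited raw featureCounts counts per Ensembl gene, so the values are counts without normalization. Per-sample files and the table of all samples differed in 0 cells. Of 41480 features, 92 spike-ins had 0 reads. Duplicate removal without molecular identifiers can lower counts of abundant genes.

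Counts were analysed with edgeR 4.0.16 (glmQLFit with legacy = FALSE), limma 3.58.1 and DESeq2 1.42.0 in R 4.3.3, and tabulated in Python 3.11.15. A gene was kept where 4 or more samples had 10 or more reads, TMM was applied, and EAM and control were compared on the 8 hearts of a time point. Differences between time points were contrasts in 1 fit of 24. P-values were Benjamini-Hochberg adjusted over all genes kept. The SE is the log2 fold change over the root of F. Exon lengths, positions and overlaps are GENCODE M21, and the promoters are RefSeq. The fits of the D15 comparison and of the change from D10 to D15 were tested on simulated counts with equal spread in all groups. No other comparison was simulated.

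The members, lists and naming rule were chosen with earlier results of these data known. Named are all members, Ptprc, per role up to 3 called genes with the largest D15 change, every gene called at D21, and 3 nearest genes per called member; Tnfrsf10b, Bmf, Bik and genes named as not called were added after their values were seen. Alternatives were other tests, limits, normalizations, filters and comparators, a replicate block and leaving out each library. Same-numbered EAM and control hearts deviated together at D21 (correlations 0.107, 0.184, 0.309 and 0.234) but not in every pair at D10 or D15. Hearts of different numbers were not compared and no label gives a pairing, so this check cannot show whether the numbers pair hearts. All fits in the text leave the hearts unpaired, and the replicate block is an alternative. Some genes of the lists are not reported here. Counting intervals cover counting error only.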

Additional observations from a re-analysis of the deposited data

Results flagged for a closer look

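In D10 EAM hearts, Bcl2l11 in replicate 1 was at 37.64 CPM against 23.4 to 24.8 CPM in the other 3, a gap on the log2 scale wide enough to pass Dixon's limit for 4 samples. It was 1 of 54 groups of 4 examined, and chance passes about 5% of groups.

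The EAM effect differed between D10 and D15, by a test of the difference itself over 24 hearts, for Casp8 (1.01 on the log2 scale, adjusted p = 0.00901), Ripk1 (1.49, adjusted p = 0.00195), Bcl2l11 (1.11, adjusted p = 0.00262) and Birc3 (1.42, adjusted p = 0.00794). In all 4 the effect was larger at D15. Without D10 EAM replicate 1, in which leucocyte markers were high, the values were 1.36, 1.84, 1.29 and 1.91.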

How the results depend on the processing

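Over all alternatives, 972 values of single genes kept their direction and side of the limits, 31 lost a call, 37 gained one and 13 changed sign. Of the counts of called members 324 stayed within 1.5 times the main count and 24 did not. These counts take in both directions and the control comparisons. The main count was above 0 only for members higher at D15 and for effects that grew from D10 to D15. Most of the 324 are therefore counts that stayed at 0. At D10 the count of members higher went from 0 to 1 with all 12 controls, where Bcl2l11 changed sign (0.0282). Leaving out 1 library gave Casp8 log2 fold changes of -0.0066 to 0.49 at D10. At D21 the count of 0 became 4 at an FDR of 0.05, with the likelihood ratio test, with DESeq2 and with all 12 controls. It was 3 with all 24 samples in 1 fit and 0 to 7 with single libraries left out. Of all genes, 9.37% were called higher at an FDR of 0.05, 8.88% with the likelihood ratio test and 8.93% with DESeq2. With all 12 controls 1588 of 15630 genes were called higher, and with all 24 samples 1567 of 16318, against 657 of 15266 in the main fit. For the change from D10 to D15 it went from 4 to 2 with no filter on low counts and was 2 to 7 with libraries left out. For the change from D15 to D21 the count of members lower went from 0 to 1 at an FDR of 0.05, where 444 of 16318 genes were called lower. That count was 0 to 2 with libraries left out. There the value of Bcl2, 0.00, changed sign with DESeq2 (-0.0163), RLE (-0.0173), total counts (-0.151), no filter (-0.0164) and a filter of 1 CPM (-0.0037), and was -0.111 to 0.0802 with libraries left out. The causes were not tested.

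With the replicate block, 8 members were called at D15 and 0 at D10 and D21 (Ripk3 at D21 1.62, adjusted p = 0.0180). Of all genes, 2780 of 15693 were then called higher at D15, 1 of 15029 at D10 and 645 of 15266 at D21. For the change from D10 to D15, 6 members were called in place of 4, with Ripk3 and Bak1 added. Of all 16318 genes 1335 were then called in this direction, against 865 in the main fit. The block changed no other member's call. With 4 hearts a group, and D10 and D21 EAM hearts that vary widely, a call missed there does not show that a level was alike.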
